A study of Mus musculus with 8 samples.

Results

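The genes examined here are 9 members of the interleukin-1 (IL-1) family of cytokines and receptors: the agonists Il1a, Il1b, Il18 and Il33, the secreted inhibitors Il1rn and Il18bp, the decoy receptor Il1r2, and the signalling receptor chains Il1r1 and Il1rap. They were chosen by name, as the array probes whose RefSeq identifier maps to one of these genes, and for a gene with more than 1 probe the brightest was taken. All 9 had a probe and passed the filter on dim signals, among 36949 genes and transcripts tested, of which 20846 carry a gene name.

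IL-1 family cytokines are alarm signals of innate immunity. IL-1α and IL-1β bind IL-1 receptor type 1 (Il1r1), which recruits the accessory protein Il1rap and signals through MyD88 and IRAK kinases to NF-κB. IL-1β and IL-18 are made as inactive precursors that caspase-1 cleaves within inflammasomes, while IL-1α and IL-33 can act when cells are damaged. The system is held in check by the receptor antagonist (Il1rn), by the type 2 receptor (Il1r2), which binds IL-1 without signalling, and by IL-18 binding protein (Il18bp). In macrophages the genes of several of these proteins are classical targets of lipopolysaccharide (LPS), the bacterial ligand of Toll-like receptor 4.

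Peritoneal macrophages came from LysMCre-fur(fl/fl) mice (KO), in which Cre recombinase from the lysozyme M (Lyz2) locus deletes the floxed alleles of the proprotein convertase FURIN in myeloid cells, and from wild type littermates (WT), all on a C57BL/6 background. Adherent cells were cultured and left unstimulated (0 h) or given LPS at 1 μg/ml for 1, 4 or 24 h. The sources used here do not give the age of the mice. They also do not say whether the 2 biological replicates of a group are single animals or pools. In the fits used here, the p-values measure a spread between 2 samples per group that is pooled over the times. Where replicate number is fitted as a block, the difference shared by a replicate's arrays is taken out of that spread first. Each of the 8 Agilent 2-colour arrays carried KO and WT RNA of 1 time point, KO RNA being labelled with Cy5 in replicate 1 and the dyes exchanged in replicate 2, so that replicate number and dye orientation are 1 factor. Times follow the sample titles, although the growth description gives every sample 4 h of LPS.

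The precision is limited by the number of arrays, and 43.8% to 51.3% of the gene spots were well above background in a channel. The log2 KO/WT ratio of Furin lay between -0.85 and -0.55 on the 6 arrays at 0, 1 and 24 h but at 0.0012 and 0.33 after 4 h, so that at 4 h the level of the deleted gene goes against the labels. Lyz2, the locus that carries Cre, was lower in KO on all 8 arrays (log2 -1.85 to -0.75). All 9 macrophage markers with a probe were well above background in every channel. Markers of other cells were also detected, with 7 of 8 mast cell, 6 of 6 B cell and 5 to 6 of 8 T and NK cell markers above background in each channel, and 3 to 4 of 9 neutrophil markers. Among the latter S100a8, Elane and Camp were above background in all 16 channels, Ltf in 1 and the other 5 in none. In such bulk samples, fewer cells of a type and less RNA per cell cannot be told apart.

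The start regions of the genes that moved most are shown first. These RefSeq promoter windows (build GRCm38.p6) run 5′ to 3′ from 250 bases before to 50 bases after an annotated start, and capitals mark matches to the motifs searched. Il1a and Il1b lie near each other on chromosome 2 and were the members with the strongest LPS response, Il1rn, on the same chromosome, encodes their natural antagonist, and Il33 had the largest KO/WT ratio after 4 h.
Il1a, chr2:129309923-129310222, minus strand: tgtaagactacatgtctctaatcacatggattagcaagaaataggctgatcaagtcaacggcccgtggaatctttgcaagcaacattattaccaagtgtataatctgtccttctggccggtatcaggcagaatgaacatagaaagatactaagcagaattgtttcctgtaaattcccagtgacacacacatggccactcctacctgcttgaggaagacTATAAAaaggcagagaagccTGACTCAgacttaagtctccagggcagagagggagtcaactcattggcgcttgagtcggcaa
Il1b, chr2:129371090-129371389, minus strand: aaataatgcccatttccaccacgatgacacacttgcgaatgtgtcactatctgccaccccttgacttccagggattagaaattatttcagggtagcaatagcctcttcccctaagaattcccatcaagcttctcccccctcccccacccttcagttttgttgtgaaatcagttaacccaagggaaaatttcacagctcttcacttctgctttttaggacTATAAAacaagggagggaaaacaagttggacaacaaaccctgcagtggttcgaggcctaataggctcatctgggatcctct
Il1rn, chr2:24345121-24345420, plus strand: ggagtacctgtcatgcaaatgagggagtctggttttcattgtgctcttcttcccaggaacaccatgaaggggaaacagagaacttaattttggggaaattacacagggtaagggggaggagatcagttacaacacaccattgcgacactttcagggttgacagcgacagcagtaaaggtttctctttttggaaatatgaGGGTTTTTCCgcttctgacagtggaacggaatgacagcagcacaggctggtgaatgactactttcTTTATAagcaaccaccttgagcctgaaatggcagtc
Il33, chr19:29945540-29945839, plus strand: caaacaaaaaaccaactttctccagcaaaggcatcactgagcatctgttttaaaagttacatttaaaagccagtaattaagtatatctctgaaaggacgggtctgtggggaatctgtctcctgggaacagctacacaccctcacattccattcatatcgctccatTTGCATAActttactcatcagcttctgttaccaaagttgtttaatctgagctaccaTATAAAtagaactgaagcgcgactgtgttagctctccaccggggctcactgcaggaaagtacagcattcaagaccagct
The motifs were an NF-κB motif (GGG and CC with 5 bases between), TGANTCA (AP-1), TTGCNNAA (C/EBP), an interferon response element (GAAA repeated after 2 bases) and the core promoter motif TATAAA, read on both strands, and their matches may overlap each other. The capitals stand for TATAAA at position -32 from the start and TGANTCA at -12 in Il1a, for TATAAA at -31 in Il1b, for the NF-κB motif at -51 and TATAAA on the opposite strand at 15 in Il1rn, and for TTGCNNAA at -85 and TATAAA at -29 in Il33. Of all 32851 promoter windows of that length, 13.6% hold TATAAA, 7.81% TGANTCA, 10.8% TTGCNNAA, 3.44% the interferon response element and 50.8% the NF-κB motif. The 9 members have 13 windows, of which 6 hold TATAAA, 2 TGANTCA, 3 TTGCNNAA, 1 the interferon response element and 5 the NF-κB motif. A match describes these letters and is not a binding site.

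LPS raised most of the family, in an order that differed between members. Levels below are log2 normalised intensities of a channel, given for replicate 1 and then replicate 2. They compare samples for 1 gene and not genes with each other, because probes differ in brightness. Changes are log2 differences with their standard error (SE), and adjusted p values come from limma fits over all genes tested, with the Benjamini-Hochberg method and a threshold of 0.05.

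**Figure D1:**
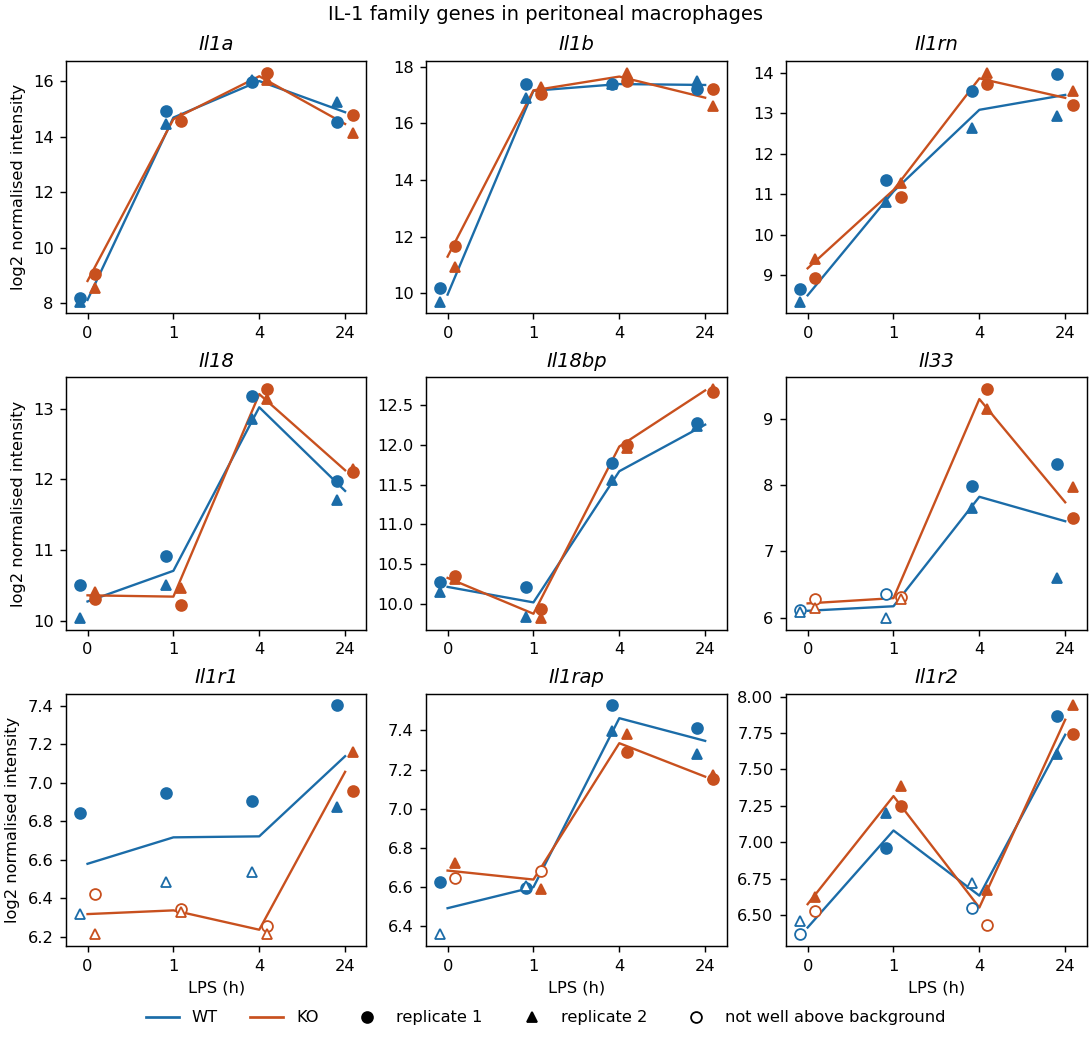
Log2 normalised intensity (y axis, a separate scale for each gene) of the 9 IL-1 family genes against hours of LPS (x axis, evenly spaced), in WT (blue) and KO (orange), with circles for replicate 1, triangles for replicate 2, open symbols for channels not well above background and lines through the means. Il1a and Il1b had risen by 1 h, Il1rn, Il18 and Il18bp were higher at 4 h than at 1 h, and Il33 was above background at 4 and 24 h only.

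Il1b, which encodes the secreted agonist IL-1β, was at 10.20 and 9.70 in unstimulated WT macrophages, 17.41 and 16.90 after 1 h of LPS, 17.38 and 17.41 after 4 h, and 17.21 and 17.51 after 24 h. In KO macrophages the same times gave 11.67 and 10.92, 17.03 and 17.30, 17.51 and 17.80, and 17.21 and 16.61. Every LPS-treated channel was thus far above every unstimulated one in both genotypes. The rise in WT was 7.20 (SE 0.26, adjusted p = 1.12e-09) at 1 h, a 147-fold change that ranked 4 of 36929 genes and transcripts, and it stood at 7.44 (adjusted p = 1.15e-10, 173-fold) at 4 h. From 1 to 24 h no further change passed in WT (4 h against 1 h 0.24, adjusted p = 0.604, and 24 h against 1 h 0.20, adjusted p = 0.675). In KO the level after 24 h was below that after 4 h by a log2 difference of -0.75 (adjusted p = 0.0468), a call that was lost without either 4 h array (0.0859 without replicate 1 and 0.247 without replicate 2), without replicate 2 at 24 h (0.366), and under 4 processing alternatives (0.0576 to 0.148).

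Il1a, which encodes the largely cell-associated agonist IL-1α, was at 8.18 and 8.05 in unstimulated WT cells, 14.93 and 14.47 after 1 h, 15.97 and 16.06 after 4 h, and 14.52 and 15.26 after 24 h. KO cells gave 9.07 and 8.53, 14.58 and 14.69, 16.32 and 16.05, and 14.79 and 14.14. Il1a was highest at 4 h in both genotypes, and the 4 h channels lay above all others. The WT rise was 6.58 (SE 0.26, adjusted p = 2.73e-09) at 1 h and 7.90 (adjusted p = 6.94e-11, 238-fold) at 4 h, ranking 8 of all genes and transcripts. The step from 1 to 4 h (1.32 in WT, adjusted p = 0.00142, and 1.55 in KO, adjusted p = 0.000367) and the fall from 4 to 24 h (-1.12, adjusted p = 0.00466, and -1.72, adjusted p = 0.00016) both passed, although the fall in WT did not with loess normalisation alone (-0.75, adjusted p = 0.0627). The 1 h and 24 h levels did not differ beyond their spread (0.19 in WT and -0.17 in KO, adjusted p = 0.696 and 0.748).

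Il18, the gene of the caspase-1 substrate and interferon-γ inducer IL-18, had no called rise at 1 h without the replicate block and was highest at 4 h. WT channels were at 10.51 and 10.04 at 0 h, 10.92 and 10.50 after 1 h, 13.18 and 12.86 after 4 h, and 11.97 and 11.70 after 24 h. KO channels were at 10.32 and 10.41, 10.23 and 10.46, 13.28 and 13.13, and 12.11 and 12.15. The 0 and 1 h channels overlapped, while all 4 h channels exceeded all 24 h channels, and these all earlier ones. At 1 h the change did not pass in WT (0.43, SE 0.18, adjusted p = 0.203, but 0.0129 with the replicate block) or in KO (-0.02, adjusted p = 0.984). By 4 h Il18 had risen by 2.74 in WT (adjusted p = 3.05e-08, 6.70-fold) and by 2.84 in KO (adjusted p = 2.25e-08, 7.18-fold), and it then fell by 1.18 (adjusted p = 0.000149) and by 1.08 (adjusted p = 0.000315) to 24 h.

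Il33, which encodes the nuclear alarmin IL-33, was not well above background in any channel at 0 or 1 h, where its levels were 5.99 to 6.35. After 4 h it was at 7.99 and 7.65 in WT and at 9.45 and 9.14 in KO, and after 24 h at 8.31 and 6.59 in WT and at 7.51 and 7.97 in KO, all well above background. For a comparison with a group that is all dim, only a lower bound of the fold can be given, namely the bright group's mean over the dim group's, each dim value raised to at least the lowest signal that counted as above background on that array, after Aquantile normalisation. By that measure Il33 was at least 2.85-fold higher at 4 h than at 0 h in WT (log2 change in the fit 1.72, SE 0.38, adjusted p = 0.00258) and at least 7.45-fold higher in KO (3.08, adjusted p = 1.7e-05). At 24 h the bounds were 2.09-fold in WT (adjusted p = 0.015) and 2.57-fold in KO (adjusted p = 0.00745). The 24 h value of WT rests on replicate 1, without which the change was 0.49 (adjusted p = 0.0793), and it was also lost without either unstimulated array (0.0779 and 0.0833), as was that of KO without unstimulated replicate 2 (0.0612). In KO the fall from 4 to 24 h was -1.56 (adjusted p = 0.00622), not past the threshold without replicate 1 at 4 h (0.0626) or with loess alone (0.0659), whereas in WT the 4 and 24 h values overlapped (-0.37, adjusted p = 0.577).

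Of the secreted inhibitors, Il1rn had risen by 1 h and Il18bp by 4 h. Il1rn, the gene of the IL-1 receptor antagonist, was at 8.66 and 8.35 in WT at 0 h, 11.34 and 10.80 after 1 h, 13.54 and 12.64 after 4 h, and 13.97 and 12.94 after 24 h. KO cells had 8.94 and 9.41, 10.94 and 11.28, 13.72 and 14.01, and 13.22 and 13.56. The 1 h channels lay between those of 0 h and those of the later times, and the 4 and 24 h channels overlapped. Il1rn had risen by 2.57 (SE 0.35, adjusted p = 0.000281, 5.93-fold) at 1 h in WT and by 4.95 (adjusted p = 1.09e-07, 31.0-fold) at 24 h, with 2.02 of it between 1 and 4 h (adjusted p = 0.000434). In KO the rise was 1.94 at 1 h (adjusted p = 0.00317, but 0.0585 without unstimulated replicate 1) and 4.69 at 4 h (adjusted p = 1.12e-07), and the later difference of -0.48 between 24 and 4 h did not pass (adjusted p = 0.373, and 0.0153 with the replicate block).

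Il18bp, whose product sequesters IL-18, was at 10.27 and 10.15 in WT at 0 h, 10.21 and 9.83 after 1 h, 11.78 and 11.56 after 4 h, and 12.27 and 12.24 after 24 h. In KO it was at 10.35 and 10.31, 9.93 and 9.82, 12.00 and 11.96, and 12.67 and 12.70. It was still rising when Il18 had begun to fall, since in both genotypes every 24 h channel exceeded every 4 h channel. The rise from 0 h was 1.45 (SE 0.12, adjusted p = 2.62e-07) at 4 h and 2.04 (adjusted p = 1.66e-08, 4.11-fold) at 24 h in WT, and 1.65 (adjusted p = 7.75e-08) and 2.36 (adjusted p = 4.83e-09, 5.12-fold) in KO. The step from 4 to 24 h was 0.59 in WT (adjusted p = 0.00156) and 0.70 in KO (adjusted p = 0.000341). At 1 h Il18bp had fallen in KO (-0.45, adjusted p = 0.0335), a call that was lost without either unstimulated array (0.215 and 0.123), without replicate 2 at 1 h (0.126) and without either 24 h array (0.0660 for both), and the difference in WT was -0.19 (adjusted p = 0.465).

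The decoy receptor gene Il1r2 was dim and had a course of its own, high at 1 h, low at 4 h and highest at 24 h. WT channels were at 6.37 and 6.46, neither above background, at 0 h, then at 6.96 and 7.20 after 1 h, 6.55 and 6.72, neither above background, after 4 h, and 7.87 and 7.61 after 24 h. In KO they were at 6.53 and 6.62, 7.25 and 7.38, 6.43 and 6.67, and 7.74 and 7.94. All 1 h channels exceeded those of 0 and 4 h, and all 24 h channels exceeded the rest. In WT Il1r2 was at least 1.58-fold higher at 1 h than at 0 h (log2 0.67, SE 0.13, adjusted p = 0.00461, but 0.0690 without unstimulated replicate 1 and 0.0804 without replicate 2 at 1 h) and at least 2.49-fold higher at 24 h (1.32, adjusted p = 2.66e-06). KO gave 0.74 at 1 h (adjusted p = 0.00255) and 1.27 at 24 h (adjusted p = 4.29e-06). The fall from 1 to 4 h was -0.77 in KO (adjusted p = 0.000354), with 1 of the 2 KO channels above background after 4 h. It also passed in WT (adjusted p = 0.0174), to channels not above background, so that no size is given, but not without replicate 2 at 1 h (0.190) or replicate 1 at 4 h (0.118). Neutrophils also express this receptor, and 4 of their 9 markers had their highest mean at 24 h. Of these, S100a8 and Camp had all 24 h channels above all others, and S100a9 and Ngp were above background in no channel. Elane had all 24 h channels below all others. The summed level of the 9 was 14.54 to 16.01 at 24 h and 11.87 to 12.37 before. At 24 h that sum was mostly S100a8 (mean 15.35, against 9.67 for Elane and 9.54 for Camp). The part of neutrophils in the Il1r2 values was not tested.

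Of the signalling chains, Il1r1 was near background, with 7 of 16 channels above it, and Il1rap had 12. Il1r1, the receptor for both IL-1 forms, was at 6.84 and 6.32 in WT at 0 h, 6.95 and 6.48 after 1 h, 6.91 and 6.54 after 4 h, and 7.40 and 6.87 after 24 h. The KO values were 6.42 and 6.21, 6.34 and 6.33, and 6.26 and 6.22 at 0, 1 and 4 h, none above background, and 6.96 and 7.16 at 24 h, both above it. In KO the gene was at least 1.60-fold higher at 24 h than at 0 h (log2 0.74, SE 0.21, adjusted p = 0.0157), which was lost without unstimulated replicate 2 (0.0838) or replicate 2 at 24 h (0.0771). The WT change of 0.56 missed the threshold (adjusted p = 0.0619, but 0.000644 with the replicate block, 0.0267 without unstimulated replicate 1 and 0.0233 without replicate 2 at 24 h). Between 4 and 24 h Il1r1 rose at least 1.64-fold in KO (adjusted p = 0.00791), and the WT difference of 0.42 passed only with the block (adjusted p = 0.177, and 0.00555 with it). Mesothelial cells and fibroblasts also express this receptor, and 5 of their 10 markers had their highest mean at 24 h. Of these, Dcn and Upk3b had all 24 h channels above all others, Upk3b being above background in only 1 of 16 channels. Msln and Krt19, above background in 11 and 6 channels, had all 24 h channels below all others. The summed level of the 10, in which Dcn was brightest at 24 h, was 11.23 to 11.58 at 24 h and 10.07 to 10.65 in all other channels, with 3 to 7 markers above background per channel and Lrrn4 and Pdgfra in none, and their part in the Il1r1 change was not tested.

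Il1rap, the co-receptor shared by IL-1, IL-33 and IL-36 receptors, was at 6.63 and 6.36 in WT at 0 h, 6.59 and 6.61 after 1 h, 7.53 and 7.40 after 4 h, and 7.41 and 7.28 after 24 h. KO channels had 6.65 and 6.72, 6.68 and 6.59, 7.29 and 7.38, and 7.15 and 7.17. The values of 4 and 24 h lay above all of those at 0 and 1 h. Il1rap had risen by 0.97 (SE 0.11, adjusted p = 5.02e-06, 1.96-fold) in WT and by 0.65 (adjusted p = 0.000208) in KO at 4 h, and stood 0.85 (adjusted p = 2.47e-05) and 0.48 (adjusted p = 0.00319) above 0 h at 24 h. Its second, dimmer probe was above background in 1 of 4 channels at 0 h and in none at 1 h, and no difference is given for it.

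In all, 4 of the 9 genes had risen after 1 h in WT (Il1a, Il1b, Il1rn and Il1r2), 7 after 4 h (all but Il1r1 and Il1r2) and 8 after 24 h (all but Il1r1), and none had fallen. Over all genes tested, 3.38% rose at 1 h, 15.5% at 4 h and 13.5% at 24 h. In KO the same 4 had risen at 1 h and Il18bp had fallen. The same 7 had risen at 4 h in KO, and all 9 at 24 h. The shares of all genes that rose in KO were 3.09%, 16.2% and 12.7%, and 4.37% fell at 1 h. These counts are without the replicate block, with which Il18 also rose at 1 h and Il1r1 at 24 h in WT. The members' median log2 change in WT was 0.43, 1.72 (1.51 with Il33 at its bound) and 1.56 at the 3 times, against medians between -0.02 and 0.00 over all genes. Between 1 and 4 h, 6 members rose and Il1r2 fell in each genotype (13.9% of all genes rose and 15.7% fell in WT, and 14.9% and 16.9% in KO). Between 4 and 24 h, 2 rose and 2 fell in WT (15.1% and 14.6% of all genes, and Il1r1 also rose under the replicate block). In KO 3 rose and 4 fell (15.6% and 15.1%), and Il1rn also fell under the block. The WT and KO responses are not independent, since KO and WT RNA of a time shared an array.

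**Figure D2:**
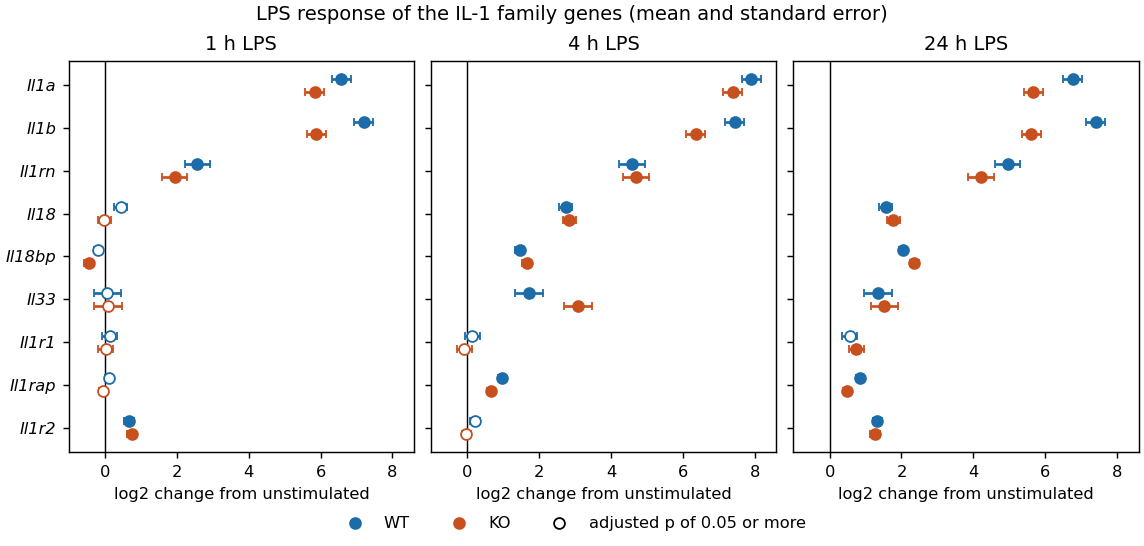
Log2 change from unstimulated macrophages (x axis) of the 9 genes (y axis) after 1, 4 and 24 h of LPS in WT (blue) and KO (orange). Bars are standard errors, and open symbols have an adjusted p of 0.05 or more. At 1 h the changes of Il1a, Il1b, Il1rn and Il1r2 passed in both genotypes, and at 4 h only Il1r1 and Il1r2 did not pass in either.

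Whether loss of FURIN changed these genes was asked at each time and in the mean over the times. No member passed between KO and WT at any time or in the mean in the fit without a replicate term, where 0%, 0%, 0.0135% and 0.0244% of all genes passed at 0, 1, 4 and 24 h and 0.566% in the mean. At an unadjusted p under 0.05 there were 2 members at 0 h (Il1a and Il1b), 0 at 1 h, 3 at 4 h (Il18bp, Il1r1 and Il33), 1 at 24 h (Il18bp) and 4 in the mean (Il18bp, Il1b, Il1r1 and Il33), where the shares of all genes were 5.78%, 5.48%, 4.3% and 3.43% at 0, 1, 4 and 24 h, and 3940 of 36949 genes and transcripts were at that level in the mean. The methods' t-test gave 0, 0, 1 (Il33) and 1 (Il18bp) members at the 4 times at that unadjusted level, against 4.58%, 4.75%, 3.05% and 4.1% of all genes, and no gene after Benjamini-Hochberg adjustment. With the replicate number, which is also the dye orientation, as a block, 2 members passed at 0 h (both higher in KO, as did 0.476% of all genes), 0 at 1 and 24 h, 1 at 4 h (higher, 0.33% of all genes) and 3 in the mean (2 higher, and Il1r1, dim in most channels, lower, 2.79% and 3.2% of all genes). In either direction the block gave 1.06%, 0.574%, 0.566% and 0.585% of all genes at the 4 times and 5.99% in the mean.

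**Figure D3:**
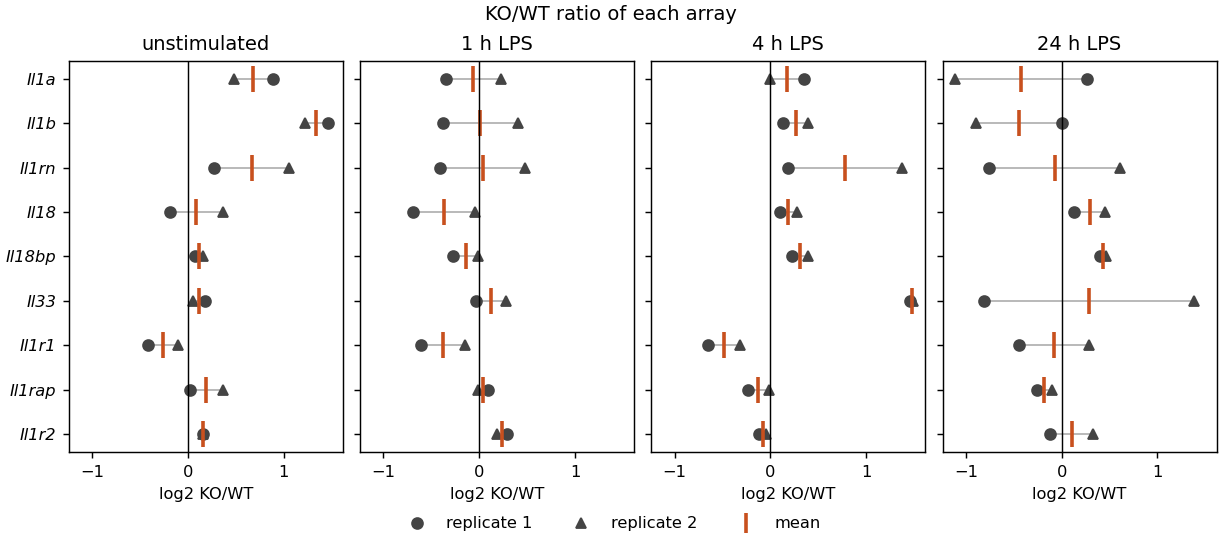
Log2 KO/WT ratio (x axis) of each of the 9 genes (y axis) on the 2 arrays of each time (circle for replicate 1, triangle for replicate 2), with orange bars for their mean. Il1b at 0 h and Il33 at 4 h stand farthest from 0 on both arrays, whereas Il1rn at 0 and 4 h and Il33 at 24 h differ widely between the arrays.

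Il1b had its largest KO/WT ratio in unstimulated macrophages, with 1.46 and 1.22 on the 2 arrays. The WT channels (10.20 and 9.70) and the KO channels (11.67 and 10.92) did not overlap. Such a lack of overlap, here and below, describes 2 channels per genotype and is not a test. Its share over all genes was not computed. The mean ratio of 1.34 (SE 0.23, 2.53-fold) ranked 8 of 36949 by size and had an adjusted p of 0.168, and 0.0155 with the replicate block. After LPS the ratios were smaller, the 2 arrays giving -0.38 and 0.40 after 1 h, 0.14 and 0.39 after 4 h, and -0.0011 and -0.90 after 24 h. At 4 h the KO channels still lay above the WT channels, and at 1 h they overlapped. At 24 h the KO channels lay below the WT channels, but barely (highest KO 17.2097, lowest WT 17.2108). The estimated response of Il1b from 0 h was smaller in KO at 1, 4 and 24 h, the log2 differences being -1.33, -1.08 and -1.79 (SE 0.32). None passed without the block (adjusted p of 1.0, 1.0 and 0.421), and the 24 h difference passed with it (adjusted p = 0.0423, where 0.124% of all genes passed with a smaller response in KO and 0.211% in either direction). At 1 and 4 h, 0% and 0.0325% of all genes passed with the block, and no member. These 3 differences share the unstimulated arrays.

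Il1a and Il1rn were also higher in unstimulated KO cells on both arrays. For Il1a the ratios were 0.88 and 0.48 (mean 0.68, SE 0.28, adjusted p = 0.809, and 0.239 with the block), and the WT and KO channels did not overlap. For Il1rn they were 0.28 and 1.06 (mean 0.67, SE 0.38, adjusted p = 1.0), again without overlap, and with the block the adjusted p was 0.0186. Il1rn was higher in the RNA labelled KO at 4 h too, with ratios of 0.18 and 1.37 (mean 0.78, adjusted p = 1.0, and 0.0119 with the block), but at 1 h (-0.41 and 0.48) and 24 h (-0.76 and 0.61) the arrays had opposite signs. Its mean ratio over the times was 0.35 (adjusted p = 0.603, and 0.00414 with the block), but -0.18 in replicate 1 and 0.88 in replicate 2. Without 1 array the mean ratio was 0.18 to 0.52, being 0.18 without replicate 2 at 24 h and 0.20 without replicate 2 at 4 h. The arrays of replicate 2 gave the higher Il1rn ratio at every time.

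Il33 had its largest ratio after 4 h, 1.46 and 1.49 on the 2 arrays, in RNA labelled KO in which Furin itself was not lower. The KO channels at 4 h (9.45 and 9.14) lay above both WT channels (7.99 and 7.65) and above all other Il33 values. The mean of 1.47 (SE 0.39, 2.78-fold) ranked 8 of 36949, with an adjusted p of 0.677 and of 0.0634 with the block. The 24 h arrays, whose ratios were -0.81 and 1.38, share the error estimate. Leaving out either of them gave an adjusted p of 0.0183 at 4 h. The mean over the times, 0.50 (adjusted p = 0.386), was 0.77 without replicate 1 at 24 h (adjusted p = 0.0113) and 0.23 without replicate 2 at 24 h (adjusted p = 0.279). It passed without that 1 array alone of the 8. No Il33 channel at 0 or 1 h was above background, so the mean over the times rests in part on background ratios and has no size. Stromal cells are known producers of IL-33, and none of the 10 mesothelial and fibroblast markers was higher in KO on both 4 h arrays. Their summed level there was 10.16 and 10.41 in KO against 10.46 and 10.65 in WT. The mast cell markers had a median KO/WT ratio of 0.47 at that time, 3 of 8 being higher and 1 lower on both arrays. Their summed levels were 15.81 and 15.84 in KO and 15.53 and 15.05 in WT. These sums were mostly Hdc (mean 15.05 at 4 h and 10.02 at 0 h), followed by Cpa3 (12.19 and 12.00). Ms4a2 was above background in no channel. The part of stromal and mast cells in the Il33 value was not tested.

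Il18bp differed little but evenly, with ratios of 0.23 and 0.39 at 4 h and of 0.40 and 0.47 at 24 h, and WT and KO channels apart at both times. At 24 h the mean of 0.43 (SE 0.10, 1.35-fold) had an adjusted p of 0.474, and of 0.0555 with the block. Over the times the mean was 0.18 (adjusted p = 0.196, and 0.0322 with the block), although the 1 h ratios were -0.28 and -0.01. Il18 itself had ratios of -0.19 and 0.37 in unstimulated cells, then -0.69 and -0.04 after 1 h, 0.10 and 0.27 after 4 h, and 0.13 and 0.45 after 24 h, and its mean of 0.05 (adjusted p = 0.950) was small against an SE of 0.09.

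Among the receptors Il1r1 was lower in KO on both arrays at 0, 1 and 4 h. Its ratios were -0.42 and -0.10 in unstimulated cells, then -0.61 and -0.15 after 1 h, -0.65 and -0.32 after 4 h, and -0.45 and 0.28 after 24 h. At the first 3 times no KO channel was above background and 1 of the 2 WT channels was, in replicate 1. In replicate 2 both channels were at background, so the difference rests on 1 array and 1 dye orientation at each of these times and no fold is given. The mean over the times was called lower with the block (adjusted p = 0.00482, and 0.238 without it), but 9 of the 16 channels behind it were not above background, so that it has no size. For Il1rap the mean ratio was -0.02 (adjusted p = 0.976), with 0.19 at 0 h and -0.18 at 24 h, and for Il1r2, with 10 of 16 channels above background, it did not pass (adjusted p = 0.620).

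The rest of the pathway was described with 42 other genes in 4 lists, all of which had a probe and were tested. They are 5 other ligands, 7 other receptors, 18 genes of signalling from the receptor and 12 of cytokine processing and release. In WT, 12 of them rose and 3 fell after 1 h, 20 rose and 10 fell after 4 h, and 17 rose and 10 fell after 24 h, where 5.12%, 19.3% and 17% of all genes fell. In KO the numbers were 11 and 4, 20 and 10, and 14 and 10 (19.7% and 15.9% of all genes fell at 4 and 24 h). Their median change at 4 h was 0.41 in WT and 0.37 in KO.

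Signalling genes mostly rose, 14 of 18 at 4 h in each genotype. The largest WT increases were those of Nfkbiz, an inducible nuclear cofactor of NF-κB, at 5.89 (SE 0.19, adjusted p = 2.72e-10) after 1 h, and of Nfkb1, an NF-κB subunit, at 3.08 (adjusted p = 9.09e-09) after 4 h. The largest decreases were those of Tab1, a partner of the kinase TAK1, at -1.47 (adjusted p = 2.58e-07) and of Irak1, a receptor-proximal kinase, at -0.83 (adjusted p = 0.000309), both after 4 h.

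Processing genes split, with 5 of 12 up and 6 down at 4 h. Nlrp3, the sensor of the inflammasome that activates caspase-1, had risen by 3.99 (SE 0.15, adjusted p = 2.27e-10), and Casp4, the cytosolic LPS sensor, by 2.41 (adjusted p = 2.49e-07). P2rx7, the ATP-gated channel that triggers IL-1β release, had fallen by 3.29 (adjusted p = 1.62e-09), and Txnip, a thioredoxin-binding protein, had its largest fall, -2.44 (adjusted p = 4.94e-08), at 1 h.

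Of the other ligands, the IL-36 genes Il1f6 (IL-36α) and Il1f9 (IL-36γ) rose in WT and the other 3 did not pass. Il1f6 was not above background in any unstimulated channel and was at least 7.64-fold, 17.0-fold and 29.2-fold higher in WT after 1, 4 and 24 h (log2 5.00, SE 0.22, adjusted p = 1.15e-09 at 24 h). Il1f9 was at least 5.49-fold higher in WT at 24 h (2.61, adjusted p = 8.99e-09), when its channels were at 8.66 and 9.01 after at most 6.54 before. Of the receptors, Il1rl1, the IL-33 receptor, fell by 2.03 (adjusted p = 0.000792) at 24 h in WT, Sigirr, an inhibitory member, fell by 1.06 (adjusted p = 0.00201) at 4 h, and Il1rl2, the IL-36 receptor, was at least 1.31-fold higher at 24 h (adjusted p = 0.000468), with 1 of its 2 channels above background there and none at 0 h. Of the 8 mast cell markers, 6 also had all 24 h channels below all others, and their part in the fall of Il1rl1 was not tested.

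**Figure D4:**
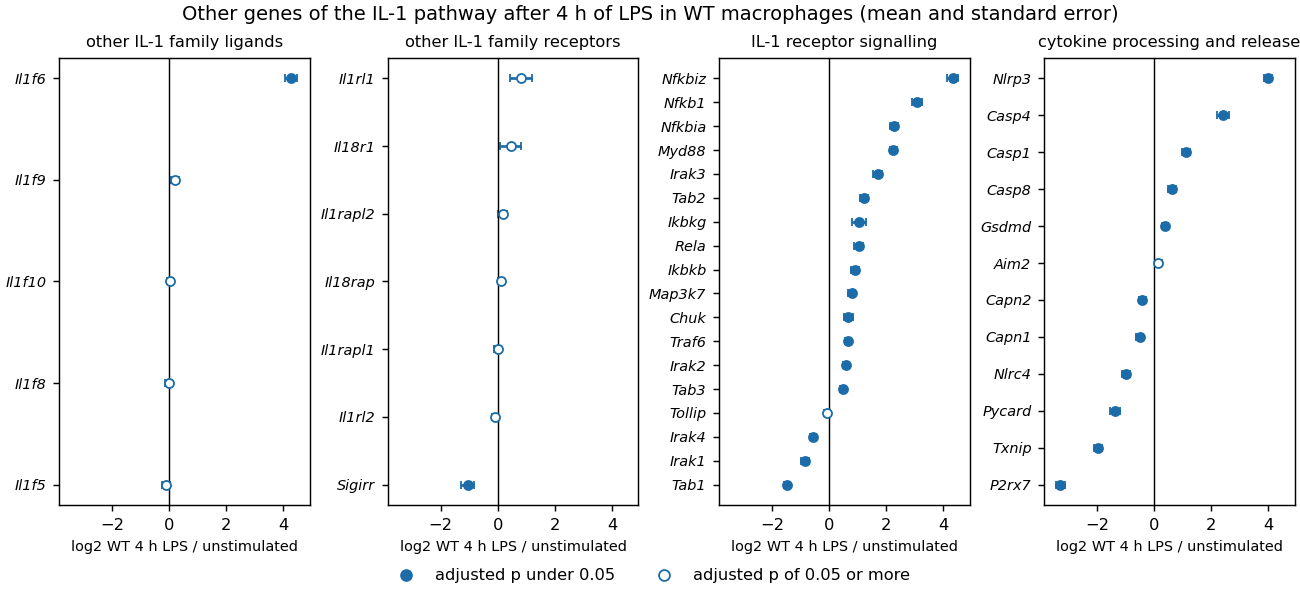
Log2 change in WT macrophages after 4 h of LPS (x axis) of the 42 other pathway genes (y axis), in 4 panels by list. Bars are standard errors, and open symbols have an adjusted p of 0.05 or more. Signalling genes lie mostly right of 0 (14 of 18 rose), processing genes lie on both sides (5 rose and 6 fell), and 1 ligand gene rose and 1 receptor gene fell.

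None of the 42 passed between KO and WT at a time or in the mean without the block. With it, 1 passed at 1 h and 1 at 4 h (0.574% and 0.566% of all genes) and 4 in the mean (5.99%), all higher in KO (2.79% in the mean). Il1f6 passed at 4 h, where the channels were at 10.80 and 10.21 in WT and 11.95 and 11.41 in KO, without overlap. Its ratios were 1.15 and 1.20 (mean 1.18, SE 0.18, adjusted p = 0.159, and 0.0079 with the block), and the mean over the times was 0.49 (0.0582 and 0.00405). As for Il33, this was RNA labelled KO in which Furin was not lower. In the mean, Il18r1, an IL-18 receptor chain (0.39, adjusted p = 0.528, and 0.00315 with the block), Il1rl1 (0.63, 0.157 and 0.00595) and Tab3 (0.20, 0.110 and 0.0188) also passed with the block, and Il18r1 did at 1 h (0.70, 0.975 and 0.0267). The Il18r1 values rest on replicate 1, with ratios of 0.94, 1.33, 0.62 and 0.71 at 0, 1, 4 and 24 h, against -0.20, 0.07, -0.48 and 0.12 in replicate 2. Il1rl1 was higher in KO on all 8 arrays, by 0.08 to 1.75. Mast cells are known to express Il1rl1, and the median KO/WT ratio of the 8 mast cell markers was 0.39, 0.33, 0.47 and 0.47 at 0, 1, 4 and 24 h, with a part in the Il1rl1 value that was not tested.

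The named genes whose levels followed each member most closely over the 16 channels are given as a description, since the channels share arrays and the large LPS effect. For Il1b they were Il6 (Pearson r 0.999), Ccl3 (0.994) and Cxcl1 (0.991), and for Il1a Pvr (0.993), Cxcl1 (0.991) and Cxcl2 (0.991). Il1rn was closest to Csf3 (0.986), Zfp558 (0.984) and Slc15a3 (0.979), Il18 to Zfp975 (0.991), Tmem67 (0.991) and Tor1aip1 (0.990), and Il18bp to Cenpj (0.988), Bst2 (0.988) and Ifitm3 (0.986). Il6, Ccl3, Cxcl1, Cxcl2 and Csf3 encode inflammatory cytokines, and Bst2 and Ifitm3 are interferon-induced. Il33 was closest to Atp2c2 (0.962), Lipg (0.955) and Tcap (0.955), Il1rap to Cct3 (0.976), Map2k1 (0.974) and Slc39a14 (0.973), and Il1r2 to Asb1 (0.960), Sh3gl3 (0.948) and Smc1b (0.943), while Il1r1 was above background in too few channels. Between members, r was 0.987 for Il1a and Il1b, 0.931 for Il18 and Il1rap, 0.915 for Il18 and Il33, and 0.04 for Il18 and Il1r2.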

How the data were processed

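Peritoneal macrophage RNA was hybridised to 8 Agilent 2-colour arrays, all on 1 slide and in 1 scan, 2 per time point. Per the file headers and the study's methods, the authors extracted spot intensities with Agilent Feature Extraction 10.7.3, and the deposited scanner files hold raw median intensity values of both channels, before normalization. The series table holds log2 ratios of Cy5 to Cy3 that the authors normalized with loess and quantile methods in limma. It served only as an alternative, and correlated with the scanner ratios at r from 0.695 to 0.759.

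The members, gene lists and comparisons were chosen with earlier results of these data known. Background, normalization and tests used limma 3.58.1 under R 4.3.3 (normexp with an offset of 50, which shrinks fold changes of dim probes, loess within and quantile between arrays). Spots flagged as outliers were left out, and spots of a probe were averaged, which for Il1b were 10. Genes were named through RefSeq identifiers (27509 of 55681 gene probes). Of 37020 genes and transcripts, the 36949 whose log2 intensity averaged 6 or more entered the tests. KO/WT ratios were fitted with lmFit and eBayes, with 1 coefficient per time and 4 residual degrees of freedom. LPS responses came from limma's separate-channel fit (statmod 1.5.0, 36929 tested, within-spot correlation 0.108), in which the contrast of 24 h against 1 h was added after the data were seen. Both were tested on simulated data. Deviations of same-numbered arrays from the mean ratio of their time correlated across genes between all 6 pairs of times (r from 0.475 to 0.679). Because replicate number is also dye orientation, this cannot tell a pairing of samples from a dye effect. Values with the replicate block are given where they change a call. The methods' t-test is the two-sample Student's test of the study. Named are all 9 members, Furin and Lyz2, the pathway genes called between KO and WT (which occurred with the block) and, for LPS in WT, up to 2 with the largest increases and 2 with the largest decreases per list, and the 3 genes most correlated with each member above background in at least 8 of 16 channels. Marker genes named beside a result were chosen after their values were seen. Since the builds of the array design and of the RefSeq table differ, only promoter windows carry coordinates.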

Additional observations from a re-analysis of the deposited data

How the results depend on the processing

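The alternatives were the software's processed signals, a normexp offset of 16, Aquantile or loess alone, no filter on dim genes, the mean over a gene's probes, a within-spot correlation of 0, the deposited ratios, the methods' t-test, the replicate block, and each array left out in turn. No called result changed its direction. With the replicate block, which also holds the dye, the members called between KO and WT went from 0 to 2 at 0 h, 1 at 4 h and 3 in the mean, and from 0 to 1 for the difference in response at 24 h. Over all genes the block raised the calls at 0, 1, 4 and 24 h from 0, 0, 5 and 9 to 391, 212, 209 and 216, and in the mean from 209 to 2214. In the mean the other alternatives gave 86 (offset of 16) to 209, and leaving out 1 array gave 1 to 159. At 4 and 24 h the other normalizations, filters and sources gave 1 to 6 and 3 to 14 genes, the methods' t-test gave 0, and leaving out 1 array gave 0 to 8 and 0 to 11. For LPS at 1 h against 0 h, leaving out 1 array gave 1797 to 3297 genes in WT (3141 otherwise) and 1435 to 2842 in KO (2756 otherwise). The block moved no count of members called for LPS by over 1.5 times. With the processed signals only Il18, Il18bp, Il1a, Il1b and Il1rn passed the intensity filter, so that fewer members could be called: 5 at 24 h against 0 h in WT (8 otherwise) and in KO (9 otherwise), 4 at 4 h against 1 h in each genotype (7 otherwise), and 3 at 24 h against 4 h in KO (7 otherwise). Without 1 array, the calls ranged from 0 to 1 for KO against WT at 4 h and in the mean, and from 3 to 5 for KO at 1 h against 0 h (3 without unstimulated replicate 1). Dim signal limits Il1r1, Il1r2 and Il33, which were above background in 7, 10 and 8 of 16 channels.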
